A study of Mus musculus with 11 samples.

Results

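The 9 genes described here carry out the uptake, export, storage and sensing of iron: Tfrc, Steap3, Slc11a2, Slc40a1, Fth1, Ftl1, Ncoa4, Aco1 and Ireb2. They were picked by name out of 22104 genes in a table of mouse primary myoblasts, because Tfrc, the transferrin receptor, was lower at low oxygen in the same libraries. The oxygen values of the 9 genes are therefore given as a description, with no test, and tests are given for the comparison of genotypes, which the choice did not use although it shares libraries with it. All 9 genes passed the filter on low values, as 14729 genes did.

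Myoblasts are the proliferating precursors of muscle fibres. The cells were taken from the tibialis anterior of C57BL/6 mice of about 8 weeks that either lacked Bmal1 (Bmal1-/-, called KO here) or were wild-type (WT), and total RNA was sequenced after 6 h at 1% oxygen (hypoxia) or 21% oxygen (normoxia). There were 3 libraries of KO cells in hypoxia, 3 of WT cells in hypoxia, 3 of KO cells in normoxia and 2 of WT cells in normoxia, all grown in the same serum medium with basic fibroblast growth factor. Bmal1 encodes the partner of CLOCK in the circadian clock. The deleted stretch of Bmal1 is not described in the labels. Nor is it stated there whether the cells of a genotype came from 1 animal or several, or whether the libraries of a group were separate cultures, so p-values reflect how much single libraries scatter, and that scatter may be technical.

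Values are normalized read counts, the reads of a gene divided by 1 size factor per library. Total recovered reads per library were 18707697 to 33613328, and each hypoxia library was deeper (at least 23027613 reads) than each normoxia library (at most 21451760). Arntl, the gene symbol of Bmal1, had 98.8 to 134 normalized reads in the 6 KO libraries and 264 to 328 in the 5 WT libraries, so reads of the gene were lower but still present in KO cells. Of 8 well-known targets of the hypoxia-inducible factors (HIF), 8 rose in hypoxia in KO cells (median log2 difference 2.14) and 8 in WT cells (median 2.21). Between genotypes in hypoxia, 2 of the 8 fell in KO cells, against 5.61% of all tested genes. The summed count of 5 myoblast markers was 19293 to 22512 over the libraries.

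Iron reaches most cells bound to transferrin, which binds the transferrin receptor and is taken into endosomes. There the reductase Steap3 reduces the iron and Slc11a2 (DMT1) passes it into the cytosol, where it is used, stored in ferritin shells made of Fth1 and Ftl1 chains, or exported by ferroportin (Slc40a1). The iron regulatory proteins, encoded by Aco1 and Ireb2, bind hairpins called iron responsive elements (IREs) when iron is scarce: bound in a 3′ untranslated region (UTR) they slow the decay of the mRNA, and bound in a 5′ UTR they block its translation. RNA counts can register the first kind of control but not the second.

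The elements are printed because they divide the genes into those whose RNA level is known to answer to iron and those whose translation is. Each was found in GENCODE M21 transcripts (GRCm38) as a C, 5 bases, the loop CAGTGN and 5 bases that pair with the first 5, counting G-T pairs, and is written 5′ to 3′ with the loop in capitals. Tfrc (chromosome 16, 32608920 to 32632794, plus strand) had 4, all in the 3′ UTR within 520 bases. Their loops start 898, 1277, 1342 and 1389 bases after the end of the coding sequence.
Tfrc chr16:32631219-32631247: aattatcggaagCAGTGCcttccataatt
Tfrc chr16:32631598-32631626: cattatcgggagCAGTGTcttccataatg
Tfrc chr16:32631663-32631691: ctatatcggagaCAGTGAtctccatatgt
Tfrc chr16:32631710-32631738: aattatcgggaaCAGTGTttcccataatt
Slc11a2 (chromosome 15, 100387898 to 100425072, minus strand) had 1 in a 3′ UTR, its loop starting 47 bases after the coding sequence and with 1 of the 5 pairs unmatched. It lay in 1 of 6 annotated protein-coding transcripts, where the Tfrc elements lay in 1 of 3, and counts per gene do not separate transcripts.
Slc11a2 chr15:100395153-100395181: agccatcagagcCAGTGTgtttctatggt
Fth1 (chromosome 19, 9980598 to 9985098, plus strand), Ftl1 (chromosome 7, 45457944 to 45459884, minus strand) and Slc40a1 (chromosome 1, 45908068 to 45926523, minus strand) each had 1 in a 5′ UTR. Their loops start 21, 89 and 101 bases from the transcript start, for Fth1 in the transcript where this distance is shortest. The Fth1 element lay in 4 of 5 protein-coding transcripts, that of Ftl1 in 1 of 2 and that of Slc40a1 in 1 of 4. The ferritin elements differ from each other at 3 of 29 letters.
Fth1 chr19:9982732-9982760: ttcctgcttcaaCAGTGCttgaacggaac
Ftl1 chr7:45459779-45459807: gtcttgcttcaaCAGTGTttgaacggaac
Slc40a1 chr1:45925465-45925493: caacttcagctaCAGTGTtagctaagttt

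Such letters are rare. Of 21901 protein-coding genes, 31 (0.142%) held a fully paired match in a 5′ UTR and 129 (0.589%) held one in a 3′ UTR. With 1 unmatched pair allowed, as in Slc11a2, the shares were 0.941% and 3.98%. Tfrc was the 1 gene of the 21901 with more than 1 fully paired match in the 3′ UTR. No match was found in Aco1, Ireb2, Steap3 or Ncoa4. A match is a description of the letters and not a measurement of binding.

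**Figure D1:**
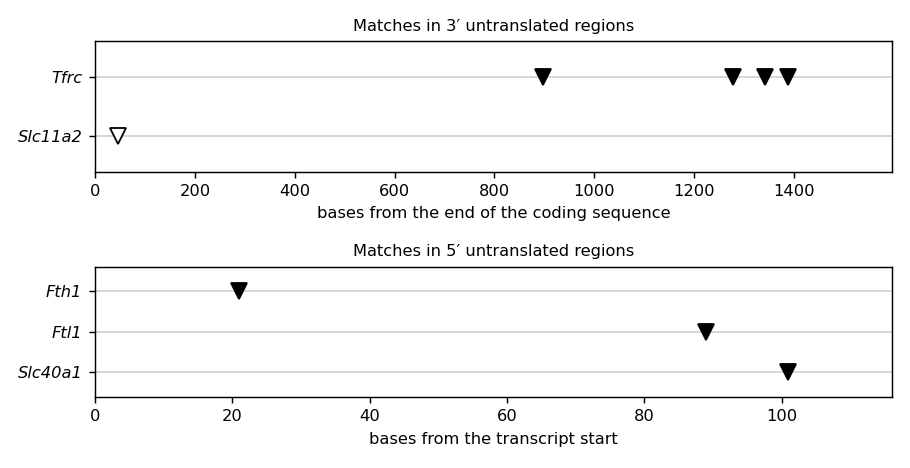
Position of matches to the iron responsive element in 3′ UTRs (upper panel, bases from the end of the coding sequence) and 5′ UTRs (lower panel, bases from the transcript start). Filled triangles are fully paired matches and the open triangle has 1 unmatched pair. Positions are those of the first base of the loop, and the 4 of Tfrc lie between 898 and 1389 bases after its coding sequence.

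Tfrc, the receptor that brings in transferrin-bound iron, had the widest span between oxygen levels of the 9 genes. In hypoxia it had 1769, 1913 and 2238 normalized reads in KO cells and 1334, 1508 and 1623 in WT cells. In normoxia it had 3847, 4030 and 3823 in KO cells and 3584 and 3241 in WT cells. Each of the 6 hypoxia libraries lay below each of the 5 normoxia libraries, and within each oxygen level each KO library lay above each WT library. Hypoxia minus normoxia came to -0.99 on the log2 scale (SE 0.08) in KO cells and to -1.20 (SE 0.09) in WT cells, which are ratios of fitted means of 0.504 and 0.436. Among the 14729 genes in order of this difference, Tfrc was the 69th from the lowest in KO cells and the 61st in WT cells. Before normalization, too, its reads were lower in the deeper libraries: 1400 to 2184 in hypoxia libraries and 2839 to 3522 in normoxia libraries. In bulk RNA, fewer cells that express a gene and less of its RNA per cell cannot be told apart.

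Steap3, the endosomal ferrireductase known best from red cell precursors (chromosome 1, 120190757 to 120272705, minus strand), was one of the 2 lowest of the 9 genes. It had 83.4, 78.1 and 115 normalized reads in KO hypoxia and 101, 112 and 112 in WT hypoxia, against 98.0, 87.5 and 109 in KO normoxia and 109 and 123 in WT normoxia. The oxygen levels overlapped in both genotypes, with differences of -0.10 (SE 0.15) in KO cells and -0.10 (SE 0.17) in WT cells.

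Slc11a2, which moves ferrous iron out of the endosome, was the other member for which every hypoxia library lay below every normoxia library. It had 436, 466 and 459 normalized reads in KO hypoxia and 355, 438 and 409 in WT hypoxia. In normoxia it had 593, 532 and 520 in KO cells and 830 and 582 in WT cells. The difference was -0.27 (SE 0.11) in KO cells and -0.80 (SE 0.13) in WT cells, and the WT value leans on 1 library: it was -0.54 without WT normoxia replicate 1, the library at 830, and -1.05 without WT normoxia replicate 2. Thus 2 of 9 members, Tfrc and Slc11a2, had all hypoxia libraries below all normoxia libraries, as 1.62% of all tested genes did. The choice of the genes used this contrast, so the share supports nothing.

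Slc40a1, the only known cellular iron exporter in mammals, was expressed at low counts. It had 79.5, 79.0 and 76.9 normalized reads in KO hypoxia and 82.0, 131 and 79.3 in WT hypoxia, against 79.4, 77.5 and 129 in KO normoxia and 67.5 and 61.6 in WT normoxia. KO normoxia replicate 3 and WT hypoxia replicate 2 stood at 129 and 131, and the other 9 libraries lay between 61.6 and 82.0. The hypoxia difference was -0.24 (SE 0.21) in KO cells and 0.55 (SE 0.24) in WT cells. In WT cells each hypoxia library lay above each normoxia library, a gap found in 15.4% of tested genes. Without KO normoxia replicate 3 the KO difference was under 0.01 in size, and without WT hypoxia replicate 2 the WT difference was 0.32. Recovered reads were 54 to 186 a library, so counting error alone was up to 13.6% of a value.

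The storage genes sat at nearly the same level in every library. Fth1, the ferritin heavy chain that oxidises iron, had 3498, 3691 and 3736 normalized reads in KO hypoxia and 3385, 3690 and 3912 in WT hypoxia, against 3691, 3258 and 3750 in KO normoxia and 3818 and 3747 in WT normoxia. Its hypoxia difference was 0.03 (SE 0.06) in KO cells and -0.05 (SE 0.07) in WT cells. Ftl1, the light chain that helps the iron core form, had 37589 to 39471 in KO hypoxia and 39687 to 41890 in WT hypoxia, against 38646 to 40273 in KO normoxia and 38376 to 41830 in WT normoxia. Its differences were -0.04 (SE 0.04) and 0.01 (SE 0.04). For both chains the oxygen levels overlapped in each genotype.

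Ferritin genes have near-identical copies in the mouse genome, and the sources used here do not say how reads shared between copies were counted. The row Ftl1-ps1 held 2.45 to 3.14% of the normalized count of Ftl1 in each library. That share was 2.71 to 2.92% in KO hypoxia and 2.45 to 3.14% in WT hypoxia, against 2.48 to 2.71% in KO normoxia and 2.48 to 2.69% in WT normoxia. The ferritin values are uncertain to the extent that such reads were split.

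Ncoa4, the receptor that carries ferritin to the lysosome for release of its iron (chromosome 14, 32159865 to 32179855, plus strand), had 2571, 2350 and 2424 normalized reads in KO hypoxia and 2828, 2620 and 2415 in WT hypoxia. In normoxia it had 2538, 2295 and 2257 in KO cells and 2421 and 2254 in WT cells. The groups overlapped, with differences of 0.05 (SE 0.06) in KO cells and 0.16 (SE 0.07) in WT cells.

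The iron sensors also varied little. Aco1 (chromosome 4, 40143081 to 40198338, plus strand) encodes the cytosolic aconitase that turns into iron regulatory protein 1 when it loses its iron-sulfur cluster. It had 1309, 1231 and 1318 normalized reads in KO hypoxia and 1302, 1411 and 1389 in WT hypoxia, against 1340, 1375 and 1330 in KO normoxia and 1425 and 1419 in WT normoxia. Within each genotype its hypoxia libraries lay below its normoxia libraries, with log2 differences of -0.07 (SE 0.05) in KO cells and -0.06 (SE 0.05) in WT cells. Such a gap downward was found in 10.7% of tested genes in KO cells and 14.4% in WT cells, and Tfrc, Slc11a2 and Aco1 were the 3 members with it in each genotype. Ireb2 (chromosome 9, 54863789 to 54912530, plus strand) encodes iron regulatory protein 2, whose amount is known to be set by degradation of the protein when iron and oxygen are present. Its normalized reads spanned 1012 to 1064 in KO hypoxia and 891 to 971 in WT hypoxia, against 922 to 1117 in KO normoxia and 858 to 1047 in WT normoxia. The differences were 0.06 (SE 0.08) in KO cells and -0.01 (SE 0.09) in WT cells.

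**Figure D2:**
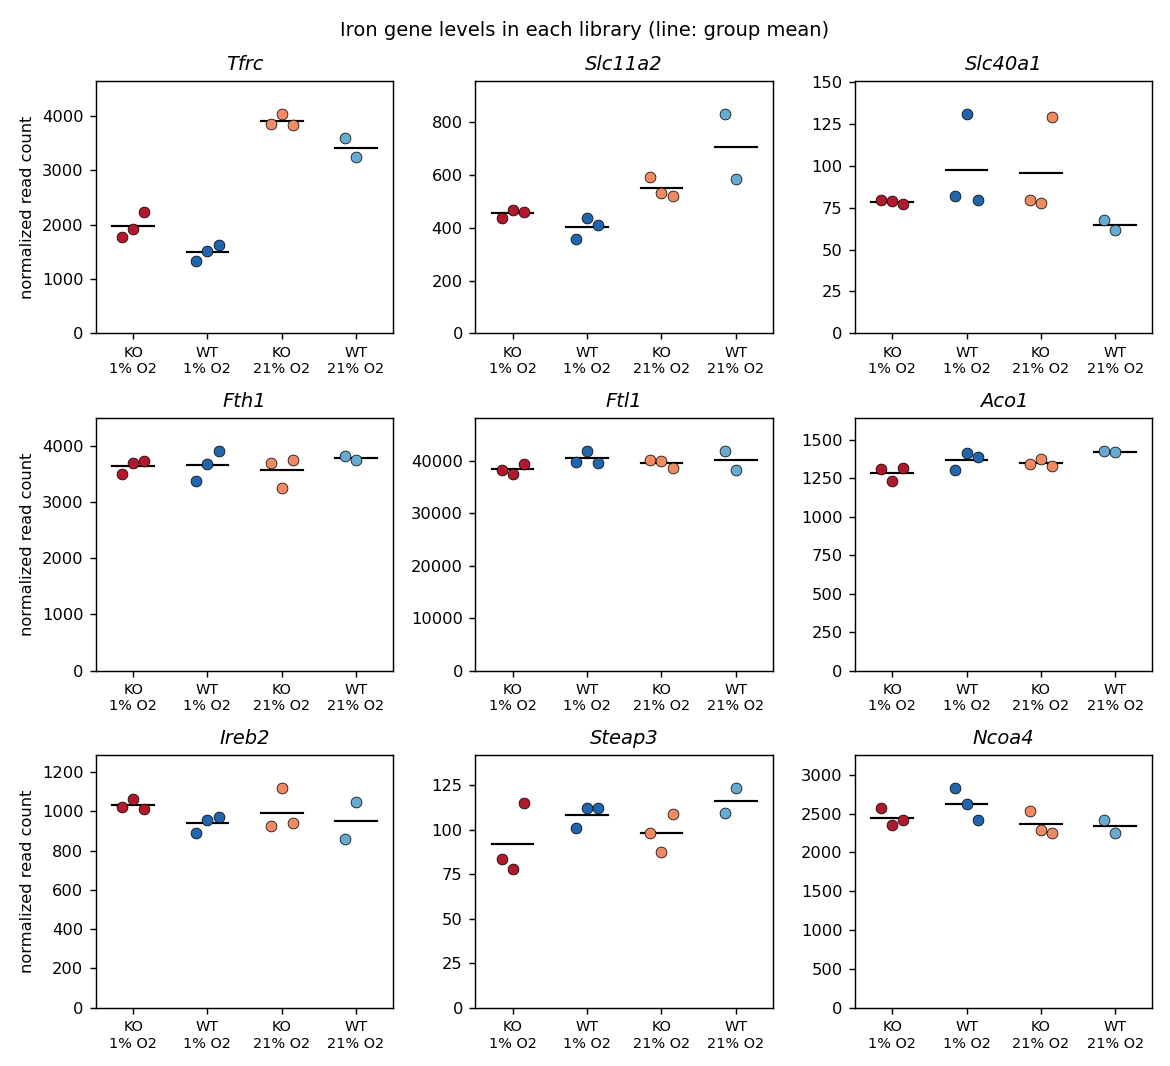
Normalized read counts of the 9 iron genes in each of the 11 libraries; each panel is 1 gene with its own axis from 0, points are libraries and lines are group means. Tfrc and Slc11a2 are the panels where every library at 1% O2 lies below every library at 21% O2, while Fth1, Ftl1, Aco1, Ireb2 and Ncoa4 stay near 1 level.

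Divided by the length of the principal transcript, which allows a comparison between genes, the levels spanned 3 orders of magnitude. Ftl1 stood first at 40940 normalized reads per kilobase averaged over the libraries, followed by Fth1 at 2445. Ncoa4 (603) and Tfrc (537) came next, and their ranges crossed: Ncoa4 had 554 to 696 per kilobase in all libraries, and Tfrc had 273 to 824. Aco1 followed at 352. Ireb2 (170) and Slc11a2 (169) did not differ beyond their spread, nor did Slc40a1 (25.4) and Steap3 (19.9). Ftl1 stood 15.7 to 18.9 times above Fth1 per kilobase in single libraries, and this ratio overlapped between all 4 groups. The uncertainty over reads shared with ferritin copies applies to its size. Tfrc per kilobase was 0.154 to 0.183 of Fth1 in KO hypoxia and 0.120 to 0.127 in WT hypoxia, against 0.311 to 0.378 in KO normoxia and 0.264 to 0.287 in WT normoxia. The 4 groups did not overlap in this ratio. Tfrc was chosen for its fall in hypoxia, so the oxygen part of this gap supports nothing. For the genotype part, single genes had a gap upward in KO cells in 12.4% of tested genes in hypoxia and 18.8% in normoxia.

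**Figure D3:**
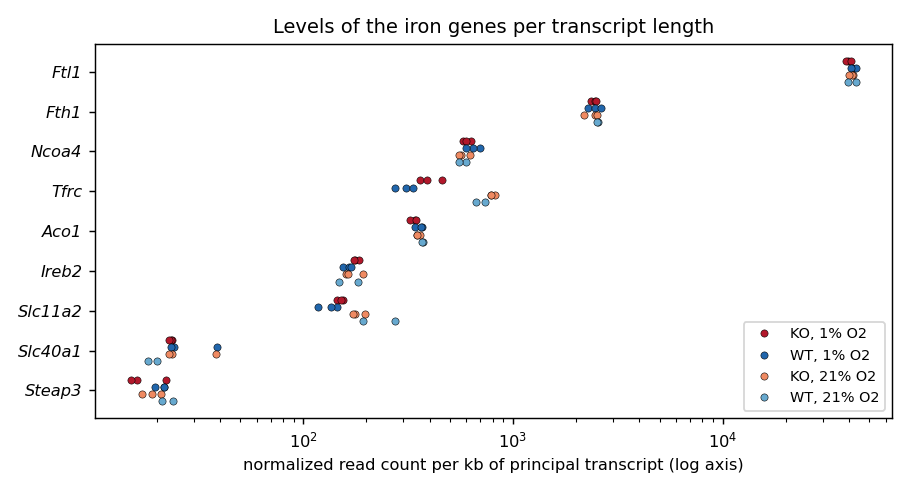
Normalized read count per kilobase of principal transcript (log axis) for the 9 genes, ordered by mean level, with 1 point per library coloured by group. Tfrc and Slc11a2 separate by oxygen, and Ftl1 (mean 40940) lies above Fth1 (mean 2445) in every library.

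The comparison of KO with WT cells asked whether the loss of Bmal1 changed these genes at either oxygen level. In hypoxia Tfrc rose in KO cells: its mean was 1973 ± 240 normalized reads (SD, n = 3) in KO cells and 1489 ± 145 (SD, n = 3) in WT cells, a log2 difference of 0.40 (SE 0.08, 95% interval 0.22 to 0.58; limma adjusted p = 0.00693). The call held in 19 of 19 alternative fits, with adjusted p from 5.3e-05 to 0.0486, and the difference was 0.31 to 0.48 with single libraries left out. It was 1 of 9 members called higher, against 3.33% of all tested genes called higher and 5.61% called lower. No other member passed the test in hypoxia. Each KO library also lay above each WT library for Ireb2 and below it for Ftl1, and 12.4% and 13.9% of tested genes showed such a gap upward and downward. Ireb2 differed by 0.14 (SE 0.08, limma adjusted p = 0.4) and Ftl1 by -0.07 (SE 0.04, limma adjusted p = 0.321).

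In normoxia 0 of 9 members were called in limma, against 9.09% of all tested genes (3.44% higher and 5.66% lower). At an unadjusted p under 0.05 there were 2, Slc11a2 and Slc40a1, which are named after their values were seen. Tfrc averaged 3900 ± 113 (SD, n = 3) in KO cells and 3412 ± 242 (SD, n = 2) in WT cells, a log2 difference of 0.19 (SE 0.09, 95% interval -0.01 to 0.40; limma adjusted p = 0.231). Slc11a2 differed by -0.34 (SE 0.13, limma adjusted p = 0.118). This value turns on the 2 WT libraries: without WT normoxia replicate 2 it was -0.60 (limma adjusted p = 0.0124), a call, and without WT normoxia replicate 1 it was -0.09. Slc40a1 differed by 0.52 (SE 0.24, limma adjusted p = 0.211), again with 1 KO library far above the others. Libraries of the genotypes did not overlap for Tfrc and Slc40a1, higher in KO cells as for 18.8% of tested genes, and for Aco1 and Steap3, lower in KO cells as for 19.6%. DESeq2 and edgeR on the recovered reads also called 0 members in normoxia.

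Whether the response to oxygen itself differed between genotypes was tested as the difference of the hypoxia effects, KO minus WT. Of the 9 members 0 were called in limma, edgeR or DESeq2, against 0.00679% of all tested genes in limma. An unadjusted p under 0.05 was found for 2 of the 9, against 784 of the 14729 tested genes. For Tfrc the difference was 0.21 (SE 0.13, 95% interval -0.06 to 0.48; limma adjusted p = 0.917), so the higher level in KO hypoxia is not shown to be a different response. Single libraries moved that value to 0.12 without KO hypoxia replicate 3, 0.13 without WT hypoxia replicate 1 and 0.14 without WT normoxia replicate 1, and to at most 0.29. For Slc11a2 it was 0.53 (SE 0.17, 95% interval 0.16 to 0.90; limma adjusted p = 0.905), with 0.27 without WT normoxia replicate 1 and 0.78 without replicate 2. For Slc40a1 it was -0.78 (SE 0.32, limma adjusted p = 0.906). The median SE of this difference over all tested genes was 0.15. Fth1, Ftl1, Aco1, Ireb2, Steap3 and Ncoa4 had differences between -0.11 and 0.08.

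**Figure D4:**
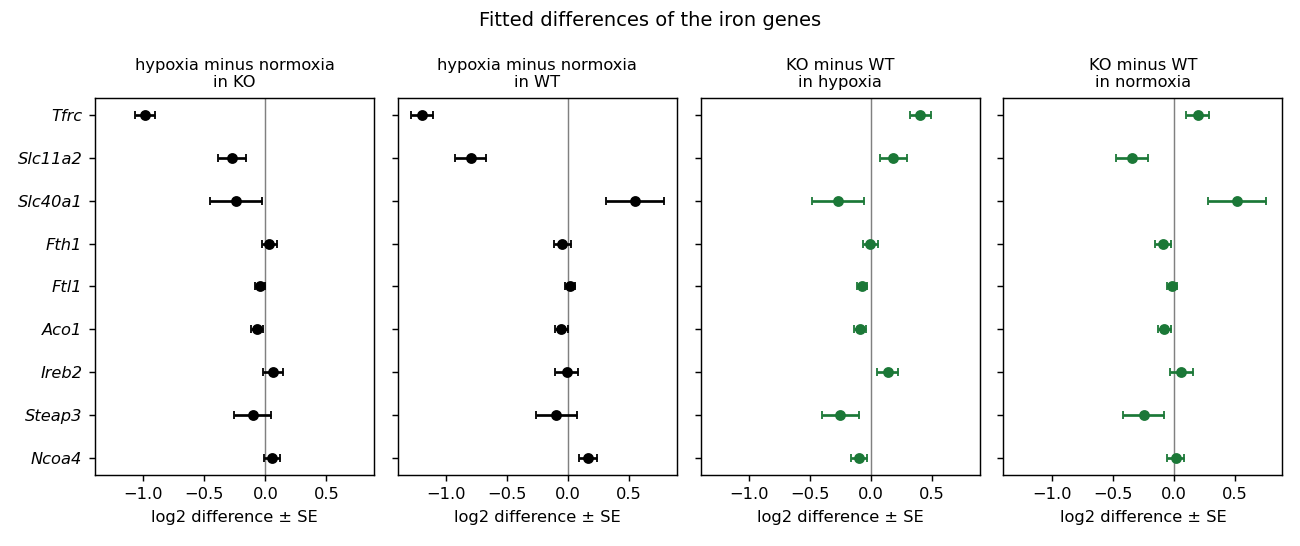
Fitted log2 differences of the 9 genes with standard errors, for hypoxia minus normoxia in KO and in WT cells (black, a description with no test) and for KO minus WT in hypoxia and in normoxia (green, tested). Tfrc in hypoxia, at 0.40, is the green point that passed the test.

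Other features of the cells moved with genotype beside Tfrc. Over all tested genes 3.33% rose and 5.61% fell in KO cells in hypoxia, and 3.44% rose and 5.66% fell in normoxia. Of 16 cell cycle genes, 4 rose in KO cells in hypoxia, 5 rose in normoxia and 0 fell. Top2a, a topoisomerase of dividing cells, differed by 0.17 in hypoxia (limma adjusted p = 0.018) and by 0.25 in normoxia (limma adjusted p = 0.00336). The hypoxia call was lost without WT hypoxia replicate 3 (0.13, adjusted p = 0.0745) or KO hypoxia replicate 1 (0.14, adjusted p = 0.0845), and with no variance trend (adjusted p = 0.095). The summed count of the list was 78197 to 80580 in KO hypoxia and 73445 to 75947 in WT hypoxia, and 76583 to 78648 in KO normoxia and 71201 to 73719 in WT normoxia. Of 6 markers of fibro-adipogenic cells, the connective tissue progenitors of muscle, 5 fell in KO cells at each oxygen level, with a sum of 2061 to 2352 in KO hypoxia and 3211 to 3706 in WT hypoxia. Of 5 genes of differentiating muscle, 3 rose in KO cells at each oxygen level, with a sum of 26415 to 28768 in KO hypoxia and 16591 to 21589 in WT hypoxia. Of 5 myoblast markers 1 rose at each oxygen level, the myogenic regulator Myf5, by 0.51 in hypoxia. Of the 8 HIF targets 2 fell and 0 rose in KO cells in hypoxia, and 0 were called in normoxia or in the difference of the hypoxia effects. Slc2a1 was one of those that fell (-0.32, limma adjusted p = 0.0392), a call lost in 9 of 19 alternatives. The part of these shifts in the Tfrc difference was not tested.

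The same lists were compared between oxygen levels. Of the 16 cell cycle genes 0 were called in limma for hypoxia in either genotype. At an unadjusted p under 0.05 there were 4 in KO cells and 5 in WT cells, against 2584 and 2000 of 14729 tested genes. The summed count of the list overlapped between oxygen levels in each genotype. Of the 6 fibro-adipogenic markers 2 rose in hypoxia in KO cells and 0 in WT cells, against 3.15% and 1.7% of all tested genes. Their sum was 2061 to 2352 in KO hypoxia and 1418 to 1708 in KO normoxia, which did not overlap, and 3211 to 3706 in WT hypoxia and 2825 to 3321 in WT normoxia, which did. Of the 5 myoblast markers 0 were called in limma for hypoxia (1 in KO cells and 2 in WT cells at an unadjusted p under 0.05). Their sum was 21332 to 22017 in KO hypoxia and 21041 to 22403 in KO normoxia, and in WT cells it was lower without overlap, 19293 to 21262 in hypoxia and 22167 to 22512 in normoxia. The part of these shifts in the hypoxia values of Tfrc and Slc11a2 was not tested. Markers of cells known for heavy iron traffic were near 0: the 4 of 8 macrophage markers with a row summed to 19.1 to 47.1 normalized reads in any library, and the 2 of 6 erythroid markers with a row to 4.22 to 11.9. The 5 endothelial markers summed to 20.4 to 61.4.

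Around the 9 members, 85 other genes of iron and haem metabolism were followed in 4 lists, and 71 passed the filter. In hypoxia 3 rose and 2 fell in KO cells (4.23% and 2.82%), against 3.15% and 0.937% of all tested genes. In WT cells 1 rose and 1 fell (1.41% each), against 1.7% and 0.468%. The median log2 difference of the 71 genes was -0.01 in KO cells and 0.01 in WT cells, where that of all tested genes was -0.01 and under 0.01 in size. Between genotypes 2 rose and 7 fell in KO hypoxia (2.82% and 9.86%), against 3.33% and 5.61% of all tested genes, and 2 rose and 5 fell in KO normoxia (2.82% and 7.04%), against 3.44% and 5.66%. In the difference of the hypoxia effects 0 of the 71 were called in limma, edgeR or DESeq2. An unadjusted p under 0.05 in limma was found for 5 of them, against 784 of the 14729 tested genes.

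Among 20 tested genes of haem synthesis, transport and breakdown, 2 rose with hypoxia in KO cells, 1 rose in WT cells and 0 fell. Hmox1, the enzyme that opens the haem ring and frees its iron, was the 1 called in both. It averaged 1556 ± 75.1 normalized reads (SD, n = 3) in KO hypoxia and 1202 ± 35.4 (SD, n = 3) in KO normoxia, a log2 difference of 0.37 (limma adjusted p = 0.00585). In WT cells it averaged 1665 ± 108 (SD, n = 3) in hypoxia and 1055 ± 116 (SD, n = 2) in normoxia, a difference of 0.66 (limma adjusted p = 1.41e-04). Both calls held in all 19 alternatives, and the effects were not shown to differ between genotypes (-0.29, limma adjusted p = 0.905). Alas1, the first enzyme of haem synthesis, rose in KO hypoxia, to 921 ± 14.9 (SD, n = 3) against 733 ± 57.0 (SD, n = 3) in KO normoxia (0.33, limma adjusted p = 0.00552). In WT cells it differed by 0.17 (limma adjusted p = 0.285).

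Genotype moved other haem genes. Blvrb, a biliverdin reductase, fell in KO cells in hypoxia (-0.26, limma adjusted p = 0.00714) and in normoxia (-0.27, limma adjusted p = 0.0138). The normoxia call was lost without either WT normoxia library, with adjusted p of 0.0682 and 0.0986, and with 2 groups in the fit (adjusted p = 0.0673). Bach1, the haem-binding repressor of Hmox1, rose in KO hypoxia by 0.20 (limma adjusted p = 0.0312). That call was lost when WT hypoxia replicate 1 or 2 or any KO hypoxia library was left out, with adjusted p of 0.0726 to 0.106, and with no variance trend (adjusted p = 0.0591).

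Of 20 tested genes of iron import, export and trafficking, 1 rose and 0 fell with hypoxia in KO cells. In WT cells 0 were called in limma, and 1 had an unadjusted p under 0.05, against 2000 of 14729 tested genes. The 1 that rose was Pcbp1, a chaperone that hands iron to ferritin and which is named after its value was seen. It averaged 882 ± 33.0 (SD, n = 3) in KO hypoxia and 728 ± 37.3 (SD, n = 3) in KO normoxia (0.28, limma adjusted p = 0.015), a call lost without KO normoxia replicate 1 or 2 or KO hypoxia replicate 1 (adjusted p of 0.0505 to 0.0737). Between genotypes 1 rose and 4 fell in KO hypoxia, and 0 rose and 3 fell in KO normoxia. Steap2, a metalloreductase of the same family as Steap3, fell to 4262 ± 162 in KO hypoxia, against 5200 ± 89.8 in WT hypoxia (SD, n = 3 each; -0.29, limma adjusted p = 2.33e-04). In normoxia it differed by -0.21 (limma adjusted p = 0.0075), a call lost without WT normoxia replicate 2 (adjusted p = 0.0825).

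Snx3, a sorting nexin that returns the transferrin receptor to the cell surface, also fell in KO cells, by 0.25 in hypoxia (limma adjusted p = 0.0101) and by 0.27 in normoxia (limma adjusted p = 0.0153). The hypoxia call was lost without WT hypoxia replicate 3 (adjusted p = 0.0509), and the normoxia call without WT normoxia replicate 1 (adjusted p = 0.136) or KO normoxia replicate 2 (adjusted p = 0.0534). Hjv, the muscle co-receptor of bone morphogenetic proteins in iron balance, rose to 179 ± 21.6 in KO hypoxia, against 109 ± 23.5 in WT hypoxia (SD, n = 3 each; 0.72, limma adjusted p = 0.00664), in all 19 alternatives. Lrp1, an endocytic receptor that takes up haem on hemopexin among other ligands, fell in KO normoxia (-0.57, limma adjusted p = 0.00317), a call lost without WT normoxia replicate 2 (-0.47, adjusted p = 0.0589). The other 2 that fell in KO hypoxia, named after their values were seen, were Trf (transferrin) and Steap1. Trf averaged 43.2 ± 18.7 in KO hypoxia and 103 ± 20.4 in WT hypoxia (SD, n = 3 each; -1.31, limma adjusted p = 0.0125). The Trf call was lost without WT hypoxia replicate 1 (-1.21, adjusted p = 0.0556), and that of Steap1 (-0.21, limma adjusted p = 0.037) without any 1 of the 6 hypoxia libraries (adjusted p of 0.0687 to 0.106). Both were also lost with no variance trend (adjusted p of 0.0562 and 0.0609).

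All 26 genes of iron-sulfur cluster assembly were tested. With hypoxia 2 fell in KO cells, Isca2 by 0.34 (limma adjusted p = 0.0318) and Lyrm4, a partner of the cysteine desulfurase, by 0.42 (limma adjusted p = 0.033). In WT cells 0 of the list were called in limma, and 6 had an unadjusted p under 0.05, against 2000 of 14729 tested genes. There Isca2 and Lyrm4 differed by -0.21 and -0.23 (limma adjusted p = 0.319 and 0.395). The Isca2 call was lost without any KO library but normoxia replicate 2 (adjusted p of 0.0582 to 0.125), and the Lyrm4 call without any KO library but normoxia replicate 3 (adjusted p of 0.0571 to 0.13). Both were also lost with DESeq2 (adjusted p of 0.0612 and 0.0776) and with 2 groups in the fit (0.0723 and 0.0629), and that of Lyrm4 with no filter (0.0535). Between genotypes 1 fell and 0 rose in KO hypoxia, and 2 rose and 0 fell in KO normoxia. Cisd3, a mitochondrial iron-sulfur protein, was the gene that fell in hypoxia (-0.53, limma adjusted p = 0.0194), a call lost without WT hypoxia replicate 1 or 2 or KO hypoxia replicate 1 or 2 (adjusted p of 0.0519 to 0.0903).

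Of 6 other transcripts reported to carry an IRE, 5 were tested. With hypoxia 0 rose and 1 fell in WT cells, and 0 were called in limma in KO cells. In KO against WT cells 0 rose and 1 fell at each oxygen level. The gene that fell between genotypes was Pfn2, an actin-binding profilin, by 0.50 in hypoxia (limma adjusted p = 0.00227) and by 0.42 in normoxia (limma adjusted p = 0.0167), the second lost without either WT normoxia library (adjusted p of 0.0543 and 0.141). Cdc42bpa and Cdc14a, both with reported elements, were not called in any comparison.

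**Figure D5:**
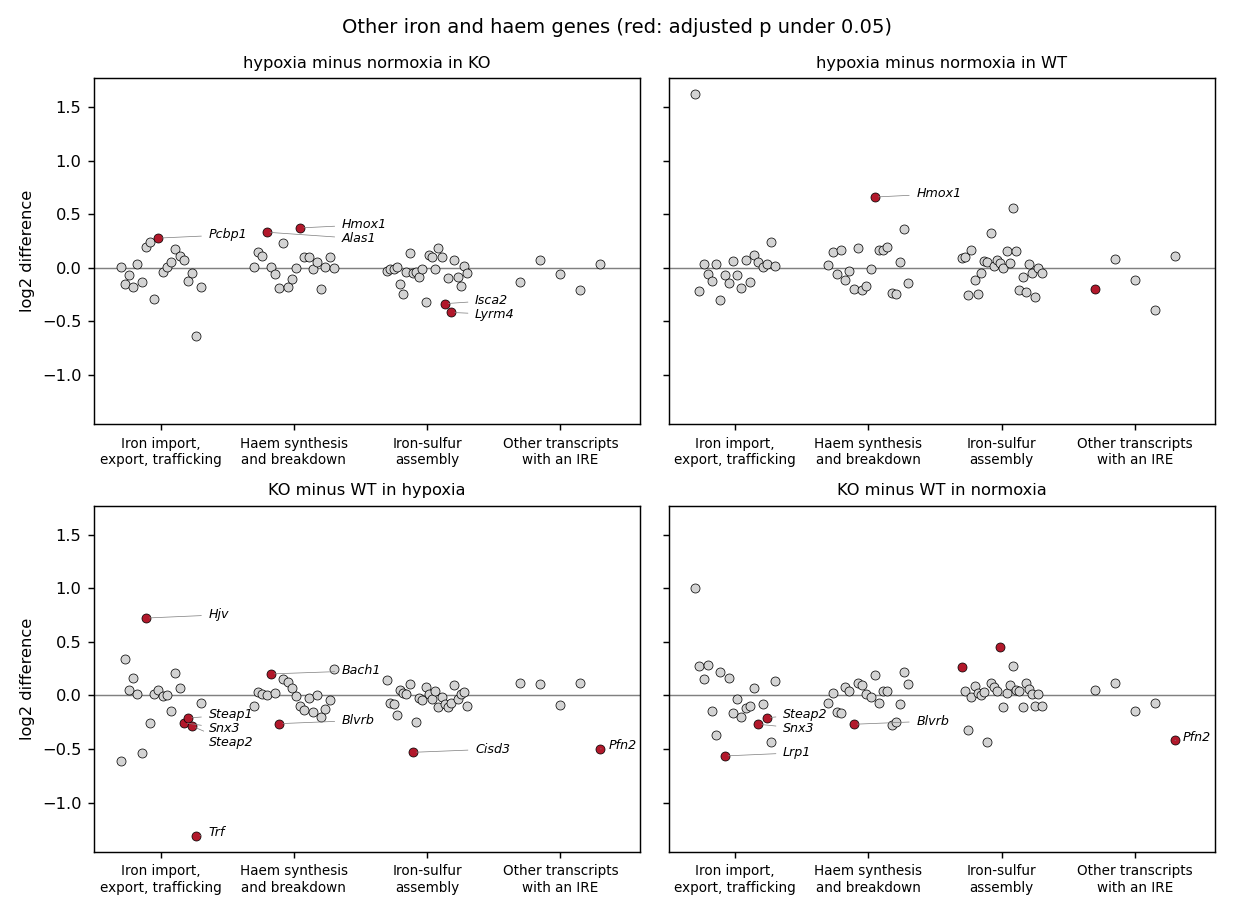
Fitted log2 differences of the 71 tested genes in 4 lists of iron and haem metabolism, for hypoxia minus normoxia (upper panels) and KO minus WT (lower panels). Red points passed limma at an adjusted p under 0.05, and those the text describes are named; Hmox1 is the gene named in both upper panels.

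Among 4 proteins that are known to speed the decay of mRNAs with AU-rich or stem-loop elements, Tfrc mRNA included for some, Zfp36l2 rose in KO hypoxia, to 2275 ± 114 against 1774 ± 59.2 in KO normoxia (SD, n = 3 each; 0.36, limma adjusted p = 0.0044). It was 1 of 4 called higher with hypoxia in KO cells, against 3.15% of all tested genes. In WT cells Zfp36l2 averaged 2353 ± 219 (SD, n = 3) in hypoxia and 2077 ± 12.9 (SD, n = 2) in normoxia and was not called. Any part of Zfp36l2 in the Tfrc values was not tested. Zfp36, Zfp36l1 and Zc3h12a (Regnase-1) were not called in any comparison, and Zc3h12a had 154 to 175 normalized reads in KO hypoxia and 141 to 225 in WT hypoxia, against 112 to 150 in KO normoxia and 118 to 132 in WT normoxia.

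The promoter of Tfrc is shown because the gene is a known target of HIF, which binds the core letters ACGTG or GCGTG, and because CLOCK and BMAL1 bind CACGTG. The 100 bases before the GENCODE start, chr16:32608820-32608919 on the plus strand, come from the RefSeq promoter table of GRCm38.p6, with ACGTG in capitals. They also hold GCGTG on the minus strand, which reads cacgc here and is left in small letters.
Tfrc promoter: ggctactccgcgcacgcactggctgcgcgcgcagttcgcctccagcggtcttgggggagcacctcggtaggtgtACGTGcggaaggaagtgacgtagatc
The ACGTG motif begins 26 bases before that start, and it spans the upstream of the RefSeq starts, beginning 2 bases before it. Searched on both strands in 300-base windows, ACGTG was found in 19.6% of 32851 promoters, GCGTG in 32.4% and CACGTG, which contains ACGTG, in 7.15%. Both promoters listed for Tfrc held ACGTG and GCGTG, but their windows overlap and the ACGTG in both is the same site. For Ncoa4, 2 of the 3 promoters held both cores. The promoters of Aco1, Fth1, Ftl1, Ireb2 and Steap3 held no ACGTG. The core GCGTG was found in 1 of 2 promoters of Fth1, in the 1 of Ftl1 and in 1 of 4 of Steap3. It was not found in those of Aco1 and Ireb2. In 0 of the promoters of these 7 genes was CACGTG found. Slc11a2 and Slc40a1 were not matched in the table. Tfrc was lower in hypoxia, where the 8 HIF targets followed here rose, and any part of HIF in the Tfrc values was not tested.

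The genes whose pattern was most like that of Tfrc were ranked by the Pearson correlation of log2 values over the 11 libraries, as a description, among 10779 genes with a mean of at least 50. The libraries share their oxygen level and genotype, so the ranking mostly orders genes by a lower level in hypoxia. Of the first 5, 4 were Ppp2r5d (0.967), mt-Nd1 (0.967), Cdc42se2 (0.953) and Gpcpd1 (0.945). Their hypoxia differences are given with no test, since they were picked for following Tfrc. For mt-Nd1, a mitochondrially encoded subunit of complex I, hypoxia minus normoxia was -0.43 in KO cells and -0.42 in WT cells on the log2 scale. For Gpcpd1, a glycerophosphocholine phosphodiesterase, it was -0.37 in KO cells and -0.49 in WT cells, and for Ppp2r5d and Cdc42se2 it lay between -0.17 and -0.13. Among members the correlation with Tfrc was 0.81 for Slc11a2 (rank 210), between -0.18 and 0.30 for Slc40a1, Fth1, Ftl1, Aco1, Ireb2 and Steap3, and -0.67 for Ncoa4. When each library was taken as its deviation from its group mean, the first 5 were Alcam (0.993), Chst2, Rgs12, Cemip2 and Ddx11 (0.956), and the value for Slc11a2 was 0.51. The 2 lists of 5 had no gene in common.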

How the data were processed

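The authors deposited 1 table of normalized signal for 11 libraries, in which each library's read counts had been divided by its size factor. Undoing that division returned whole reads, to within 0.01 read, for 100% of values. The submitters' processing notes name bcl2fastq, STAR, Picard, HTSeq, RSEM, DESeq2 and mm10, with no versions or roles; whether the counter used strand is not given in the sources used here, and the library kit was stranded, per the labels. All 11 value columns were used.

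Values were tested as log2(value + 1), a scale that understates the change of low genes, with limma 3.58.1 (R 4.3.3, variance trend, 4 groups, residual degrees of freedom 7, prior 6.35). The test was two-sided and took the 14729 of 22104 genes that reached a value of 10 in 2 or more libraries. Adjustment was by Benjamini-Hochberg over all of them, and genes under 0.05 count as called; the verbs rose and fell are kept for these. edgeR 4.0.16 and DESeq2 1.42.0 on recovered reads, other pseudocounts (0.5 and 5), no filter, TMM factors, no variance trend, a fit of 2 groups and fits without each library were alternatives. The fit was tested on simulated data. Symbols were found for 21819 genes in GENCODE M21 and a gene name table.

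The members and lists were chosen with earlier results of these data known. Some genes are not reported here. All members are named, with up to 4 genes per list by smallest adjusted p, and the 5 genes most like Tfrc by each of 2 correlations. Intervals of differences come from the fit; counting error is 1 over the square root of reads.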

Additional observations from a re-analysis of the deposited data

How the results depend on the processing

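No paired analysis was possible because the replicate numbers only follow the order of the accessions, and the numbers in the sample titles run once through the series. In all, 19 alternatives were run, 11 of which left out 1 library. Of 40 single-gene values that passed the test, 18 kept the call in every alternative, among them Tfrc in KO against WT hypoxia. With TMM factors in place of the authors' size factors, the scale of the comparisons shifted by -0.0113 to 0.0087 (log2).

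Counts of members called changed once: 0 to 1 were called lower in KO normoxia with a library left out (Slc11a2). Of the 71 other iron and haem genes, those called lower in WT hypoxia numbered 0 with no variance trend or 2 groups in the fit, and 0 to 1 with a library left out. Those called lower in KO hypoxia against KO normoxia numbered 1 with no filter, 0 with 2 groups, and 0 to 3 with a library left out. Between genotypes in normoxia, those called higher numbered 1 with no filter, with 2 groups and with DESeq2, and 0 to 2 with a library left out, and those called lower 1 to 5. Between genotypes in hypoxia, those called higher numbered 1 with no variance trend and 1 to 2 with a library left out, and those called lower 4 to 7. The cause of these changes was not tested.

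Some uncalled values near 0 changed sign. With a library left out, the ranges were, for KO minus WT in hypoxia, -0.062 to 0.043 in Fth1. For KO minus WT in normoxia they were -0.078 to 0.047 in Ftl1, -0.082 to 0.21 in Ireb2 and -0.038 to 0.067 in Ncoa4. For the difference of the hypoxia effects they were -0.12 to 0.0040 in Ftl1, -0.046 to 0.020 in Aco1, -0.069 to 0.22 in Ireb2 and -0.17 to 0.10 in Steap3, the last also 0.00016 with edgeR and 0.00077 with DESeq2. The described hypoxia differences of Slc40a1 in KO cells (-0.36 to 0.00046), Fth1 (-0.031 to 0.070 in KO cells and -0.098 to 0.0064 in WT cells), Ftl1 in WT cells (-0.048 to 0.077), Ireb2 in WT cells (-0.16 to 0.13) and Steap3 in KO cells (-0.27 to 0.0033) crossed 0 in the same way. With 2 libraries, WT normoxia limits each comparison that uses it, and counting error limits Slc40a1, Steap3 and Trf.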
